A study of Mus musculus and Mus spretus with 72 samples.

Results

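Oxidative phosphorylation is carried out by a chain of protein complexes in the inner mitochondrial membrane, and the genes described here encode their nuclear subunits and assembly factors. Members were the probes with a single gene symbol that begins with Nduf, with Sdh and a letter from a to d, with Uqcr, with Cox and a digit, or with Atp5. Pseudogenes, 2 probes, were left out. The rule found 85 of 14386 genes, measured by 86 of 22089 probes. They comprised 31 probes of complex I, 3 of complex II (Sdha, Sdhb and Sdhc), 8 of complex III, 15 of complex IV, 15 of complex V and 14 of assembly factors. Atp5md had 2 probes and every other member gene 1.

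Transcript levels were measured on 72 two-colour arrays, each comparing RNA of a single male mouse with a pool of 9 C57BL6 mice of the same tissue, C57BL6 being a laboratory strain. Each of the 3 tissues, brain, liver/kidney and testis, had 6 arrays of dom (Mus musculus domesticus), 6 of mus (M. m. musculus), 3 of cas (M. m. castaneus), 6 of ssp (Mus musculus of a sub-species that the labels do not name) and 3 of spretus (Mus spretus, a separate species). All mice were about 12 weeks old, the labels name no allele or treatment, and liver and kidney are labelled as a single tissue. The design asks how expression diverges at early and late stages of population divergence. Every value is a log2 ratio of sample over pool, centred on each array's median, and that base and direction are assumptions explained with the processing. Between 42825 and 44832 of 46128 spots carried a value on each array, and the duplicate spots of a probe correlated with a median r of 0.559. Levels cannot be compared between genes or between tissues, because each tissue had its own pool.

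Complex I oxidises NADH and complex II oxidises succinate. Both pass electrons through ubiquinone to complex III, through cytochrome c to complex IV, and finally to oxygen. Complexes I, III and IV pump protons, and complex V, the ATP synthase, lets them return to make ATP. Most subunits are encoded in the nucleus, and several subunits of complex IV exist as isoforms used in different tissues, such as the muscle forms Cox6a2, Cox7a1 and Cox8b and the testis form Cox8c. Assembly factors help to build the complexes without remaining in them.

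Many promoters of such genes are known to carry sites for the nuclear respiratory factor NRF1, for the ETS-family factor GABP (NRF2) and for YY1. RefSeq promoter sequences (GRCm38.p6, 250 bases before to 50 bases after the annotated start) were matched by gene identifier for 70 of the 85 member genes, giving 76 promoters. Both strands were searched for exact letters, and in the 76 promoters 0 matches overlapped a match to another motif. The NRF1 letters, GCGCA, any base and GCGC, stood in 16 of the 76 (21.05%), against 4.6% of all 32851 promoters of that length. The ETS letters CCGGAAG stood in 21 (27.63%, against 8.86%) and the YY1 letters AANATGGC in 17 (22.37%, against 6.05%). A match describes letters in a window and is not evidence that a factor binds there. The promoters of Atp5j2, Cox8a and Ndufaf8 are given as examples that hold matches. These genes encode 3 members with lower values in spretus, in testis for the first and in liver/kidney for the others. Among other members called lower in spretus, the promoter of Ndufb5 held YY1 letters, while those of Ndufaf2 and Ndufv2 held 0 matches. For Atp5c1, 1 promoter held NRF1 letters and another held 0 matches. Members called higher in spretus held matches too, ETS letters for Uqcrh and NRF1 letters for Uqcrc1. All sequences are those of the reference assembly and not of spretus, and a link between matches and the spretus values was not tested. Capitals mark the matches: YY1 letters 23 bases after the start of Atp5j2 (chr5:145191492-145191791, minus strand), ETS letters beginning 5 bases before and 32 bases after that of Cox8a (chr19:7217567-7217866, minus strand), and ETS letters 8 bases before and YY1 letters 10 bases after that of Ndufaf8 (chr11:120098684-120098983, plus strand).
Atp5j2: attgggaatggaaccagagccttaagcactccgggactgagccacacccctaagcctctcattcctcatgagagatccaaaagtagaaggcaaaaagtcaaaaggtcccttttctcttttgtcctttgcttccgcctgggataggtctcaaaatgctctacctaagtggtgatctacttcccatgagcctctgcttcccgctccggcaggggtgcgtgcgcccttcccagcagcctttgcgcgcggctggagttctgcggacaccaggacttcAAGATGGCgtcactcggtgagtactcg
Cox8a: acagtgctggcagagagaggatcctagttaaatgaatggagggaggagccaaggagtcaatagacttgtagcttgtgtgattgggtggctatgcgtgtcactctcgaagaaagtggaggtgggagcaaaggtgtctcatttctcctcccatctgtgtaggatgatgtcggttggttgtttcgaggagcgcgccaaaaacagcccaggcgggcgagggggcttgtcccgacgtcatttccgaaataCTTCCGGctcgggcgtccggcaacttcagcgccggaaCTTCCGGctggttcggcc
Ndufaf8: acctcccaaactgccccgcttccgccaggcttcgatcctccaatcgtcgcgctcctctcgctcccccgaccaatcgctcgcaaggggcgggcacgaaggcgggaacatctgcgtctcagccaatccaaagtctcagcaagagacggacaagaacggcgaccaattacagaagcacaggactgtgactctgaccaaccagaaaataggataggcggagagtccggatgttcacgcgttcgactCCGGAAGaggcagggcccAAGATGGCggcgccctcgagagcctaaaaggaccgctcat

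Arrays fell into 4 sets by which of their spots were empty: within a set the empty spots correlated with a median r of 0.607, and between sets with at most 0.205. The labels do not say what the sets are. Set 1 held all arrays of dom, mus and ssp in liver/kidney, all of ssp and most of mus in testis, and all but 1 array of dom. Set 2 held the cas and spretus arrays except cas 3 of brain and spretus 2 of liver/kidney, which formed the third set, and it also held 3 ssp and 2 mus arrays of brain and 2 mus arrays of testis. Array dom 1 of testis stood alone. Set and group therefore overlap strongly, and values within a set are given beside the results below. Of the 16 calls described below, 7 held with the set as a random block, and 5 of the 11 that allowed it held with the set as a fixed term.

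As a list, the members moved little between the groups. The difference of spretus from the mean of the 4 musculus groups (dom, mus, cas and ssp) had a median over members of -0.01 in brain (84 tested), -0.01 in liver/kidney (85) and -0.04 in testis (85), beside 0.02, -0.00 and 0.01 over all probes tested. In testis 32 members were above and 53 below 0, in brain 39 and 45, and in liver/kidney 39 and 46. Of all probes tested, 52.3% were above 0 in testis, 53.9% in brain and 49.4% in liver/kidney. The median size of the difference, whatever its sign, was 0.13 for members and 0.11 for all probes in brain, 0.12 and 0.11 in liver/kidney, and 0.09 and 0.11 in testis. By complex in testis, complex V had 4 members above and 11 below 0 (median -0.09). Complex I had 10 above and 21 below (median -0.04), while complex III had 5 above and 3 below (median 0.07). Complex IV had 8 above and 7 below, complex II 1 and 2, and the assembly factors 4 and 9. Complex V also had more members below than above 0 in brain (5 above, 10 below) and in liver/kidney (6 and 9). Complex I had 14 above and 17 below in each of these tissues. The median member of an array lay between -0.0625 and -0.0133 on the 3 spretus testis arrays. It lay between -0.0123 and 0.0227 in dom, -0.0001 and 0.0203 in mus, 0.0215 and 0.0325 in cas, and 0.0137 and 0.0503 in ssp. The highest spretus array thus lay just below the lowest dom array, and these medians were not set against those of other lists of genes. In brain the array medians lay between 0.00 and 0.02 in spretus and between -0.00 and 0.13 elsewhere. In liver/kidney they lay between -0.04 and 0.07 in spretus and between 0.00 and 0.08 elsewhere.

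**Figure D1:**
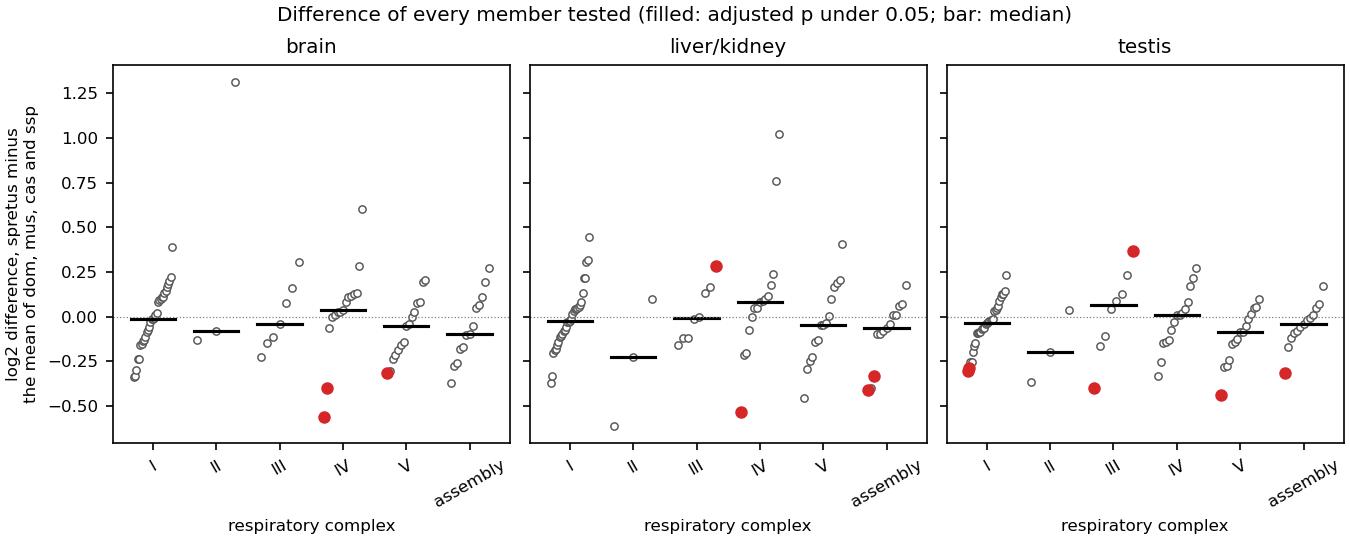
Log2 difference of spretus from the mean of dom, mus, cas and ssp (vertical axis) for every member tested, by complex (horizontal axis) in brain, liver/kidney and testis; filled points passed an adjusted p of 0.05 and bars are medians. Most members lie near 0, and filled points number 3 (brain), 4 (liver/kidney) and 6 (testis).

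Few members changed, and each count is given beside the share of all probes. Changed means a two-sided limma p under 0.05 after Benjamini-Hochberg adjustment across every probe tested in that tissue. For spretus, brain had 3 of 84 members (3.95% of all probes), liver/kidney 4 of 85 (7.49%) and testis 6 of 85 (9.42%). In brain 0 of these were higher and 3 lower, against 1.88% and 2.07% of all probes, and in liver/kidney 1 was higher and 3 were lower, against 3.03% and 4.46%. Between mus and dom, brain had 1 of 84 members (0.223% of all probes), liver/kidney 0 of 85 (0.591%) and testis 0 of 85 (0.0%). For cas set against dom and mus, the counts were 0 of 84 (0.0097%), 1 of 85 (1.11%) and 0 of 85 (0.0193%) in the same order. For ssp set against dom, mus and cas, they were 1 of 84 (0.097%), 0 of 85 (0.0436%) and 0 of 85 (0.0%). At an unadjusted limma p under 0.05 the counts where none passed were 9 members for cas in brain (12.0% of all probes), 4 for mus minus dom (6.32%) and 10 for ssp (10.6%) in liver/kidney, while testis had 3 for mus minus dom (6.59%), 9 for cas (6.25%) and 8 for ssp (4.86%). An F test of equality of the 5 groups passed for 4 members in brain (3.29% of all probes), 6 in liver/kidney (6.52%) and 2 in testis (4.29%). Cox19, an assembly factor, was tested in no tissue and Uqcrc1 was not tested in brain, because cas had fewer than 2 values there.

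In brain, the members that passed in a contrast were Ndufa4 and members of complexes IV and V. Cox4i1, the widely expressed isoform of complex IV subunit 4, was lower in mus than in dom. In dom its lowest, median and highest log2 ratios were 0.02, 0.31 and 0.50, and in mus -0.14, -0.09 and -0.03, so the groups did not overlap. The difference was -0.37 ± 0.08 (SE, n = 6 and 6), a 1.30-fold lower level, with a limma adjusted p of 0.046. Leaving out 1 array at a time kept the difference between -0.43 and -0.33, but the call was lost in 9 of 12 runs, the adjusted p reaching 0.160. Within array set 1, the difference between 4 mus and 6 dom arrays was -0.38, with an adjusted p of 0.0515, while the 1 member of 86 that passed there was Ndufb7, an accessory subunit of complex I, higher in mus by 0.31 ± 0.06 (adjusted p = 0.0409), against 0.804% of all probes. Over all arrays Ndufb7 read 0.22 ± 0.10 (adjusted p = 0.439). Array mus 8 of brain, whose channel label names domesticus, was counted with mus, so the mus range given above includes it. The run without mus 8 was among those that lost the Cox4i1 call. No overlap between mus and dom was also seen for Ndufb3, an accessory subunit of complex I, with mus between 0.19 and 0.81 and dom between -0.48 and 0.17, and for Uqcrb, a small subunit of complex III, with mus between 0.05 and 0.30 and dom between -0.37 and 0.04. Together with Cox4i1 these were 3 of 84 members, against 1.39% of all probes, and neither Ndufb3 (0.47 ± 0.12, adjusted p = 0.0976) nor Uqcrb (adjusted p = 0.516) passed the limma test. The remaining member among the 3 smallest p-values of this comparison, Cox8a (0.30 ± 0.10, adjusted p = 0.199), did not pass either.

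Cox6a2, the heart and skeletal muscle isoform of complex IV subunit 6a, was lower in spretus brain. Its 3 spretus values were -0.43, -0.38 and -0.36. The lowest, median and highest values were 0.06, 0.15 and 0.20 in dom, -0.09, 0.19 and 0.48 in mus, and -0.08, 0.32 and 0.40 in ssp, and the cas values were -0.24, 0.14 and 0.35. All 3 spretus arrays lay below all 21 others. The difference was -0.56 ± 0.10 (SE), 1.47-fold, with a limma adjusted p of 0.00292, and the call held in all 24 runs that left out 1 array. Within set 2 the difference from mus, cas and ssp was -0.54, with an adjusted p of 0.05, not under it. The mean over 7 skeletal muscle marker probes in spretus brain was -0.11 to -0.02 against 0.06 to 0.57 in mus, cas and ssp and -0.38 to 0.20 in dom. Of these 7 markers 3 lay above and 4 below 0 in the spretus comparison (median -0.06), of 4 heart markers 3 lay above and 1 below (median 0.04), and 0 of either list passed the limma test. Their part in the Cox6a2 result was not tested. In bulk tissue, fewer cells of a type and less RNA per cell cannot be told apart. Probe sequences were not available, so how well spretus RNA matches the probes was not tested for this or any other spretus difference.

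Cox4i2, the isoform of subunit 4 known from lung and from cells short of oxygen, read -0.54, -0.41 and -0.20 in spretus brain. The cas values were -0.42, -0.09 and 0.04, while dom ranged from 0.02 to 0.29, mus from 0.04 to 0.26 and ssp from -0.22 to 0.12. Thus 2 of 21 other arrays reached the spretus range. The difference was -0.40 ± 0.09 (limma adjusted p = 0.00999), and -0.45 within set 2 (adjusted p = 0.0789). Hif1a, the oxygen-regulated transcription factor subunit, was lower in the same comparison (-0.60 ± 0.15, limma adjusted p = 0.0260). It was the 1 regulator of 10 measured that passed there, and of the 10, 4 lay above and 6 below 0. A link between Hif1a and Cox4i2 was not tested.

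Atp5c1, the gamma subunit of the ATP synthase's central stalk, read -0.29, -0.24 and -0.14 in spretus brain. The other groups ranged from -0.19 to 0.22 in dom, -0.17 to 0.19 in mus, 0.07 to 0.20 in cas and 0.09 to 0.20 in ssp, and 2 of 21 arrays reached the spretus range. The difference was -0.31 ± 0.08 (limma adjusted p = 0.0216), and -0.32 within set 2 (adjusted p = 0.0892). Leaving out spretus 1 or 3 ended the call of Cox4i2 (adjusted p up to 0.120), and leaving out spretus 1 or 2 that of Atp5c1 (up to 0.150).

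Atp5b, the catalytic beta subunit, differed among the 5 groups (limma F test, adjusted p = 0.0203) without passing in a single contrast. Its spretus values of -0.25, -0.21 and -0.10 lay below all 21 others, of which the lowest was -0.05, and ssp had the highest median, 0.29, with arrays from 0.06 to 0.82. The difference of ssp was 0.35 ± 0.08 (adjusted p = 0.0595) and that of spretus -0.31 ± 0.10 (adjusted p = 0.0754). Ndufb2, an accessory subunit of complex I, lay the other way, with spretus at 0.43, 0.54 and 0.64 above all 21 others (adjusted p = 0.0577). With Cox6a2 and Atp5b it made 3 of 84 members whose spretus arrays overlapped no other array, against 2.25% of all probes.

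Ndufa4, named as a subunit of complex I and now known to belong to complex IV, was higher in ssp brain. In ssp its lowest, median and highest values were 0.12, 0.55 and 0.69, against -0.17, -0.02 and 0.06 in dom and -0.46, -0.06 and 0.08 in mus. The cas values were 0.05, 0.13 and 0.31. The difference from the mean of dom, mus and cas was 0.46 ± 0.08, 1.37-fold, with a limma adjusted p of 0.0284, and 2 of 15 other arrays reached the ssp range. The call was lost without ssp 3, 4, 5 or 6 (adjusted p up to 0.0913), and neither within set 1 (0.37, adjusted p = 0.266) nor within set 2 (0.68, adjusted p = 0.258) did it pass. Of 3 blood markers, Hbb-b2 (0.60) and Hba-a1 (0.41), both globins, passed in the same comparison, and the mean over the markers ran from 0.14 to 0.67 in ssp, -0.03 to 0.35 in dom, -0.13 to 0.08 in mus and -0.13 to 0.24 in cas. Their part in the Ndufa4 result was not tested. The third smallest p for ssp was that of Uqcrfs1, the Rieske iron-sulphur protein of complex III (0.29 ± 0.08, adjusted p = 0.123). For cas in brain the smallest were those of Ndufa13 (-0.38 ± 0.11, adjusted p = 0.190), Uqcr11 (0.31 ± 0.10, adjusted p = 0.245) and Ndufv1, the flavin-binding subunit of complex I (-0.28 ± 0.09, adjusted p = 0.273), and 0 of them passed the limma test.

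**Figure D2:**
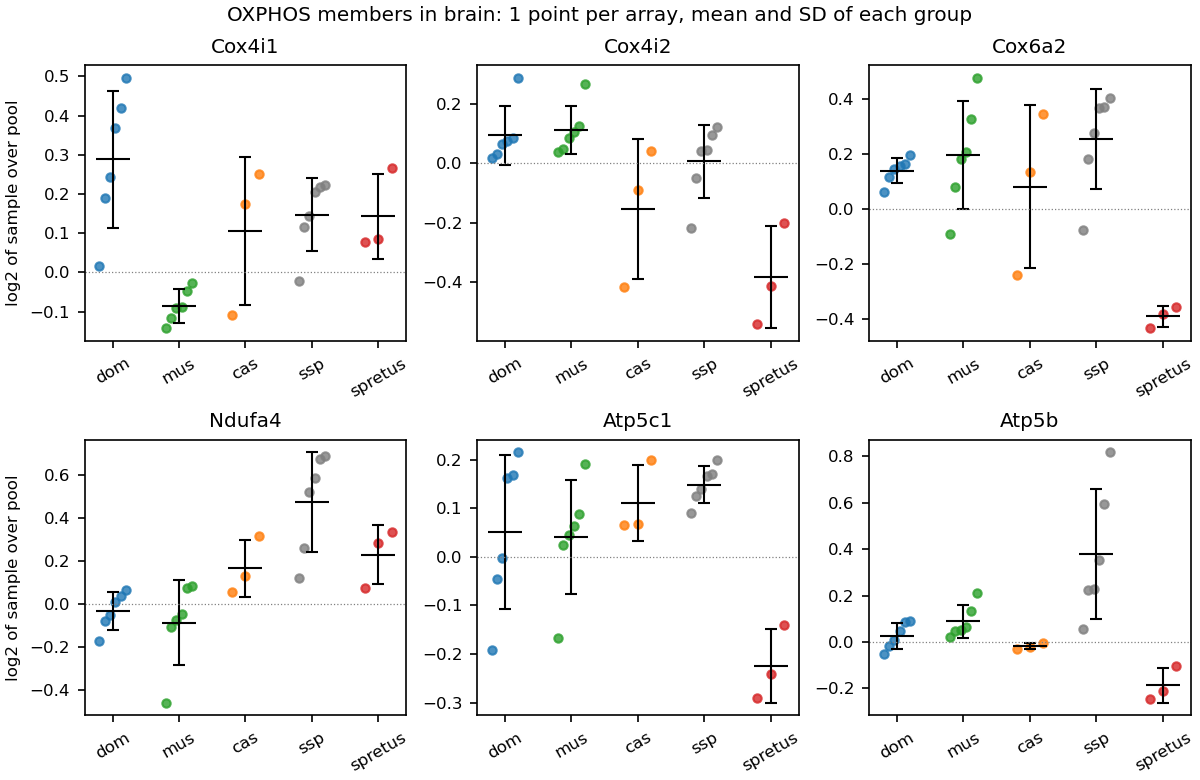
Log2 of sample over pool (vertical axis) of 6 brain members, 5 that passed in a contrast and Atp5b that passed the F test alone, by group (horizontal axis); points are arrays, horizontal marks the group means and bars the SD. Spretus lies below the other groups for Cox6a2 and Atp5b, mus below dom for Cox4i1, and ssp is highest for Ndufa4.

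In liver/kidney, the members that passed in a contrast were a pair of complex I assembly factors, a complex III subunit and complex IV subunits. Those called for spretus (Ndufaf8, Ndufaf2, Uqcrh and Cox8a) all lost the call without array spretus 2, whose high values for other members are described below. Ndufv3 of complex I and the assembly factor Cox14 passed the F test among the 5 groups alone. Ndufaf8, which acts with Ndufaf5 in the assembly of complex I, read -0.42, -0.40 and -0.35 in spretus. The lowest, median and highest values were -0.13, 0.00 and 0.05 in dom, -0.28, -0.15 and 0.08 in mus, and -0.31, -0.18 and 0.16 in ssp, and the cas values were -0.00, 0.00 and 0.22. All 3 spretus arrays lay below the 21 others, the single such member of 85, against 1.54% of all probes. The difference was -0.33 ± 0.08, 1.26-fold, with a limma adjusted p of 0.0133. Without spretus 2 it stayed at -0.33, with an adjusted p of 0.0546.

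Ndufaf2, an assembly factor that binds a late intermediate of complex I, read 0.09, -0.43 and -0.08 on spretus arrays 1, 2 and 3. The other groups ranged from -0.15 to 0.19 in dom, -0.09 to 0.35 in mus, 0.26 to 0.83 in cas and 0.16 to 0.63 in ssp, so that 4 of 21 arrays reached the spretus range. The difference was -0.41 ± 0.11 (limma adjusted p = 0.0270), and without spretus 2 it was -0.27 (adjusted p = 0.272). The difference of cas from dom and mus was 0.41 (adjusted p = 0.0881).

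Uqcrh, the hinge subunit of complex III that sits beside cytochrome c1, read 0.04, 0.43 and 0.33 in spretus, while the other groups ranged from -0.13 to 0.23 in dom, -0.15 to 0.02 in mus, -0.23 to 0.00 in cas and -0.15 to 0.12 in ssp. The groups overlapped, 9 of 21 other arrays reaching the spretus range. The difference was 0.28 ± 0.08 (limma adjusted p = 0.0312), and it was 0.20 without spretus 2 (adjusted p = 0.249) and 0.25 without spretus 3 (adjusted p = 0.110).

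Cox8a, the widely expressed isoform of complex IV subunit 8, read -0.10, -0.64 and -0.29 on spretus arrays 1, 2 and 3. Its lowest, median and highest values were 0.09, 0.22 and 0.60 in dom, 0.18, 0.34 and 0.63 in mus and -0.27, -0.05 and 0.18 in ssp, and the cas values were -0.09, -0.02 and 0.66. The difference of spretus was -0.53 ± 0.13, 1.45-fold, with a limma adjusted p of 0.0127. Without spretus 2 it was -0.38 (adjusted p = 0.146), and 2 of 21 other arrays reached the spretus range. The ssp arrays were also low: their difference from dom, mus and cas was -0.32 (adjusted p = 0.251), and -0.36 from dom and mus within set 1, where it passed (adjusted p = 0.0265).

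Cox6b1, a complex IV subunit on the intermembrane side, was higher in cas than in dom and mus. The cas values were 0.10, 0.35 and 0.77, against -0.16, -0.01 and 0.02 (lowest, median and highest) in dom and -0.08, 0.03 and 0.17 in mus. The difference was 0.42 ± 0.10 (limma adjusted p = 0.0333), but it was 0.24 without cas 3 (adjusted p = 0.292) and 0.45 without cas 2 (adjusted p = 0.0580), and 1 of 12 arrays of dom and mus reached the cas range. All 3 cas arrays lay in set 2 and all 12 of dom and mus in set 1, so set and group cannot be told apart here. Cox7c, another complex IV subunit, had cas at 0.33, 0.39 and 0.55 above the 11 measured dom and mus arrays (adjusted p = 0.318), the single such member of 85, against 2.75% of all probes. Ndufs7, an iron-sulphur subunit of complex I, had the second smallest p for cas (0.43 ± 0.12, adjusted p = 0.0814).

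Within set 2, spretus liver/kidney could be compared with cas alone, on 2 and 3 arrays. The differences there were -0.46 for Ndufaf8, -0.52 for Ndufaf2, 0.29 for Uqcrh and -0.38 for Cox8a, and 0 of 85 members and 0 of all 21097 probes passed the limma test. At an unadjusted p under 0.05 there were 8 members, against 7.55% of all probes. The hepatocyte markers were lower in spretus: 5 of 13 passed (Alb, Ttr, Trf, Fgg and Fgb), their mean ran from -0.32 to 0.05 in spretus and from 0.11 to 0.46 in the other groups. Of 14 kidney tubule marker probes, Umod was higher and Slc5a2 lower, and their mean ran from -0.12 to 0.04 in spretus and from -0.24 to 0.18 in the other groups. Their part in the results of liver/kidney was not tested.

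Ndufv3, an accessory subunit of the NADH-oxidising module, was below the C57BL6 pool on 24 of 24 liver/kidney arrays, from -1.20 to -0.05 with a median of -0.57. It was the single member of 85 below the pool on every liver/kidney array, against 0.455% of all probes. The mus arrays (lowest -1.20, median -1.0, highest -0.74) lay below all dom arrays (-0.67, -0.49 and -0.05). The difference between mus and dom, -0.57 ± 0.14, did not pass (limma adjusted p = 0.0756), while the F test among the 5 groups did (adjusted p = 0.0419). Fitted within set 1 alone, which holds all arrays of both groups, it passed (adjusted p = 0.0348). In brain Ndufv3 was below the pool on 15 of 24 arrays and in testis on 14 of 24.

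Also in liver/kidney, Cox20, an assembly factor for complex IV, read lower in mus (-0.46 ± 0.14, adjusted p = 0.254). One of the 2 probes of Atp5md, a small subunit of the ATP synthase, had mus values between -0.12 and 0.10 below all dom values between 0.13 and 0.38 (-0.20 ± 0.08, adjusted p = 0.520). The other Atp5md probe read the opposite way, 0.33 ± 0.20 (adjusted p = 0.895), so the probes disagree. With Ndufv3, Atp5md made 2 of 85 members with no overlap between mus and dom, against 1.42% of all probes. Cox14, an assembly factor that acts on the mitochondrially encoded subunit 1 of complex IV, differed among the 5 groups (F test, adjusted p = 0.0439), with medians of -0.34 in mus, -0.13 in dom, -0.03 in spretus, 0.09 in ssp and 0.28 in cas. Cox8c, the testis isoform of subunit 8, read higher in ssp (0.45 ± 0.14, adjusted p = 0.235) and Sdhaf3, an assembly factor of complex II, lower (-0.20 ± 0.07, adjusted p = 0.260).

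**Figure D3:**
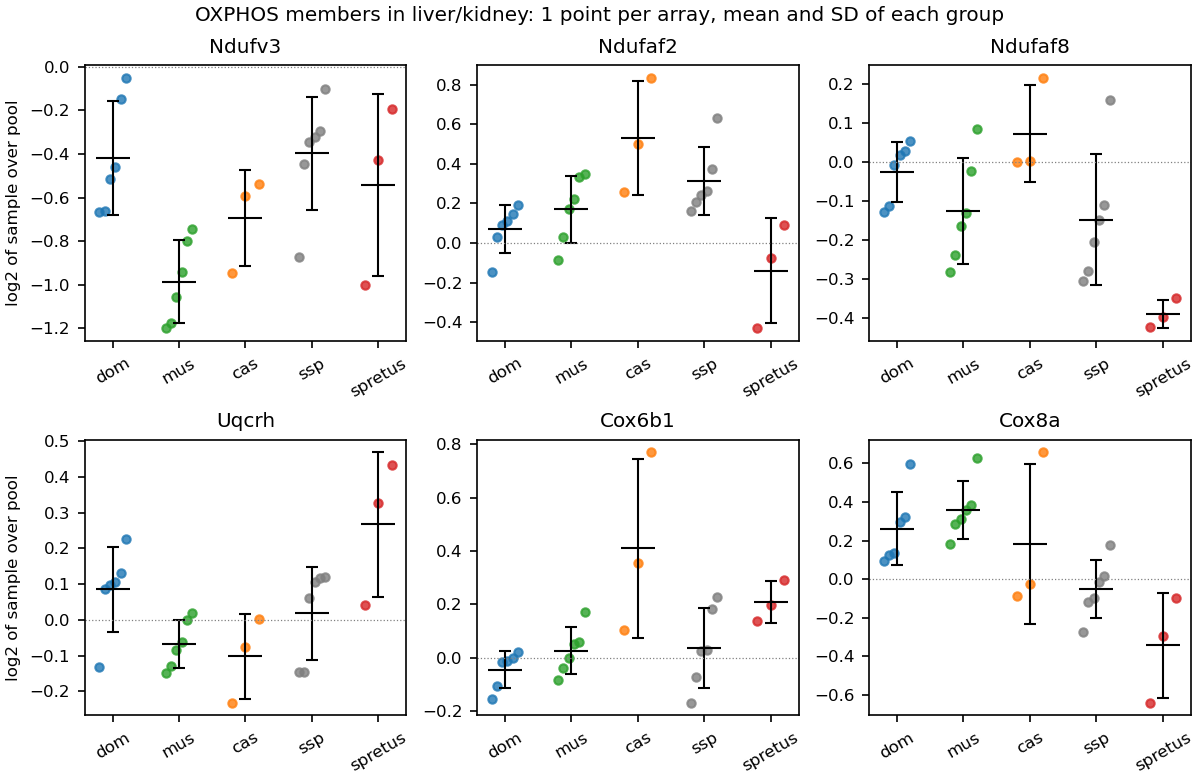
Log2 of sample over pool (vertical axis) of 6 members in liver/kidney, by group (horizontal axis); points are arrays, horizontal marks the group means and bars the SD. Ndufv3 is below 0 on all 24 arrays, and the 3 spretus arrays are lowest for Ndufaf8.

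In testis, the changed members came from complexes I, III and V and from the assembly factors, and all differed in spretus. Atp5j2, subunit f of the membrane part of the ATP synthase, read -0.37, -0.65 and -0.38 in spretus. Its lowest, median and highest values were -0.25, -0.05 and -0.02 in dom, -0.11, 0.05 and 0.26 over 5 arrays of mus, and -0.20, 0.05 and 0.09 in ssp, and the cas values were -0.20, -0.08 and -0.00. All 3 spretus arrays lay below the 20 others measured, the single such member of 85, against 3.64% of all probes. The difference was -0.44 ± 0.08, 1.35-fold, with a limma adjusted p of 0.000848, and the call held in all 24 runs that left out 1 array. Within set 2 the difference from mus and cas was -0.40 (adjusted p = 0.0745).

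Of complex I, Ndufv2, an iron-sulphur subunit of the NADH-oxidising module, read -0.23, -0.50 and -0.16 in spretus, against -0.19 to 0.11 in dom, -0.04 to 0.25 in mus, -0.05 to 0.04 in cas and -0.13 to 0.43 in ssp. The difference was -0.30 ± 0.09 (limma adjusted p = 0.0329), and -0.35 within set 2 (adjusted p = 0.123). Leaving out spretus 1 or 2 ended the call, with the value down to -0.20. Ndufb5, an accessory subunit of the membrane arm, read -0.00, -0.21 and -0.46 in spretus, and 6 of 21 other arrays reached that range. Its difference was -0.29 ± 0.09 (adjusted p = 0.0356), and without spretus 3 it was -0.17 (adjusted p = 0.319). Leaving out spretus 2 or cas 3 also ended the call, and within set 2 the difference was -0.36 (adjusted p = 0.137). Ndufaf6, an assembly factor of complex I, read -0.30, -0.35 and -0.28, and 1 of 21 other arrays, at -0.57 in ssp, reached that range. Its difference was -0.32 ± 0.09 (adjusted p = 0.0345), and -0.29 within set 2 (adjusted p = 0.0563). Leaving out any 1 of the spretus arrays, or cas 2, ended this call (adjusted p up to 0.166).

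Of complex III, Uqcrb read -0.24, -0.33 and -0.14 in spretus and 0.23, 0.42 and 0.69 in cas, with dom between -0.23 and 0.09, mus between -0.38 and 0.35 and ssp between -0.07 and 0.64. The difference of spretus was -0.40 ± 0.12 (limma adjusted p = 0.0462), and the call was lost in 15 of 24 runs that left out 1 array. Within set 2 the difference was -0.34 (adjusted p = 0.208). Uqcrc1, a core subunit of the matrix side, was the single member that was higher, and its value rested on 1 array. It read 0.11, 0.11 and 0.90 on spretus arrays 1, 2 and 3 and between -0.11 and 0.17 on the 20 other arrays, a difference of 0.37 ± 0.10 (adjusted p = 0.0248). Without spretus 3 it was 0.10 (adjusted p = 0.392). By direction, 1 of 85 members was higher, against 5.63% of all probes, and 5 were lower, against 3.79%.

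Within set 2 of testis, 0 of 85 members passed the limma test between 3 spretus and 5 mus and cas arrays, against 2.42% of all probes. At an unadjusted p under 0.05 there were 11 members, against 16.6% of all probes. Among the testis markers, Ldhc, the sperm form of lactate dehydrogenase, was lower in spretus (-1.03), the single one of 7 spermatocyte probes that passed, of which 4 lay above and 3 below 0 (median 0.06). Of 8 spermatid probes Prm1 and Odf1 were lower, with 2 above and 6 below 0, and their mean ran from -0.39 to 0.29 in spretus and from -0.32 to 0.44 in the other groups. Of 6 Sertoli probes Sox9 was higher and the 2 probes of Clu went opposite ways (-0.63 and 0.65). Of 4 Leydig probes 0 passed. The part of these markers in the testis results was not tested.

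**Figure D4:**
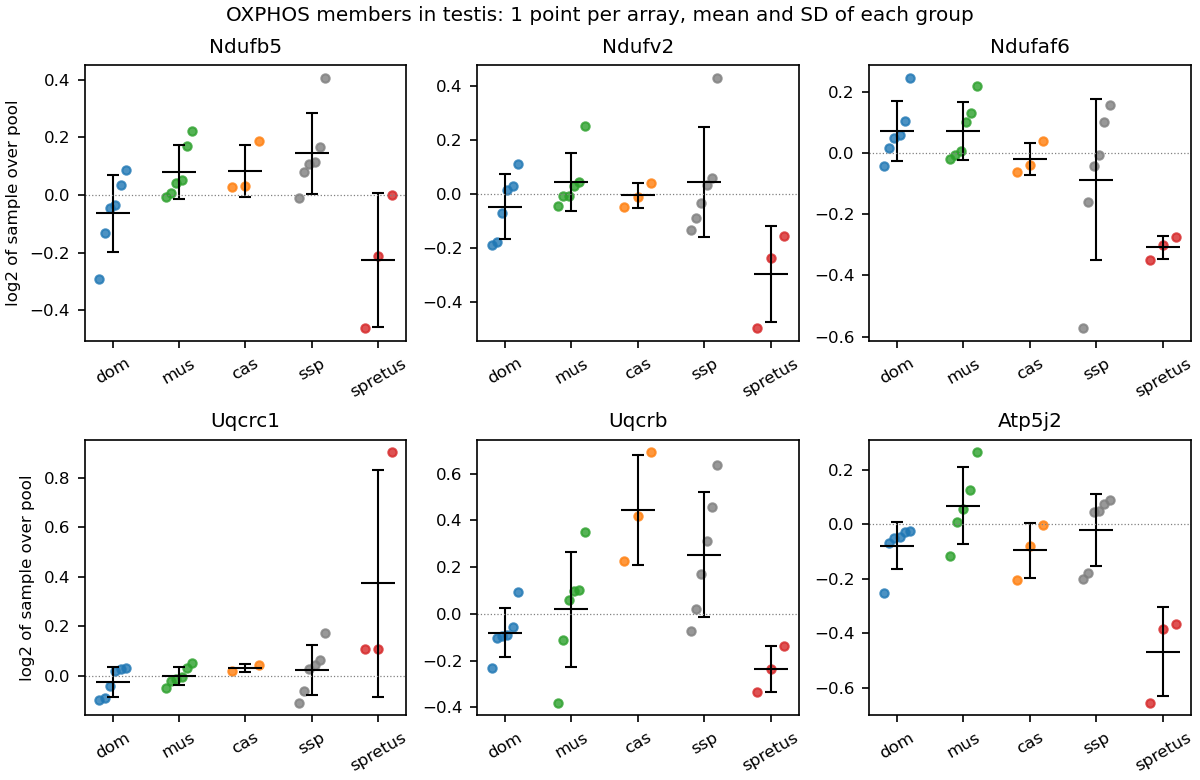
Log2 of sample over pool (vertical axis) of the 6 members that changed in spretus testis, by group (horizontal axis); points are arrays, horizontal marks the group means and bars the SD. Spretus is lowest for Atp5j2 on all 3 arrays, and for Uqcrc1 a single spretus array, at 0.90, is far above the rest.

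No testis member passed for the sub-species in the fit of all arrays. The smallest p-values for mus minus dom were those of Ndufv3 (-0.38 ± 0.14, adjusted p = 0.741), Ndufa8 (0.16 ± 0.07, adjusted p = 0.746) and Ndufa12 (0.20 ± 0.09, adjusted p = 0.746). For ssp they were those of Ndufb11 (-0.22 ± 0.07, adjusted p = 0.968), Cox5a (0.30 ± 0.11, adjusted p = 0.973) and Cox20 (-0.20 ± 0.08, adjusted p = 0.973). For cas they were those of Atp5j, Ndufv1 (-0.33 ± 0.09, adjusted p = 0.359) and Uqcrb (0.48 ± 0.13, adjusted p = 0.359).

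Atp5j, coupling factor 6 of the stalk that holds the ATP synthase in place, had the largest testis values of the members. It read 1.15, 1.20 and 1.26 in cas, 1.45 on dom 1, and 1.21, 1.68, 0.72, 0.91, 0.13 and 0.42 on ssp 1 to 6. The other 5 dom arrays lay between -0.11 and 0.27, the mus arrays between 0.09 and 0.56 and the spretus arrays between 0.30 and 0.39. High and low arrays thus stood side by side within dom and within ssp. The difference of cas from dom and mus was 0.95 ± 0.25 (limma adjusted p = 0.345), and without dom 1, the array alone in its set, it was 1.07 (adjusted p = 0.0279). Within set 2, cas exceeded mus by 1.09 ± 0.08 on 3 and 2 arrays (adjusted p = 0.0136). In the same groups, the cas values were 0.42, 0.37 and 0.74 in brain and 0.28, 0.36 and 0.38 in liver/kidney, within the range of the dom and mus arrays in liver/kidney.

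Differences of spretus are given side by side for the isoforms of complex IV subunits, and differences between isoforms were not tested. Beside Cox4i2 and Cox6a2, which were lower in brain, their widely expressed counterparts read 0.03 ± 0.08 (Cox4i1, adjusted p = 0.893) and -0.06 ± 0.08 (Cox6a1, adjusted p = 0.726) in the same limma comparison. In liver/kidney the differences were 0.08 for Cox4i1, -0.21 for Cox4i2, -0.07 for Cox6a1 and -0.20 for Cox6a2, and in testis -0.25, -0.14, -0.07 and 0.01, and 0 of these 8 passed. The subunit 7a isoforms Cox7a1 and Cox7a2 differed by 0.13 and 0.28 in brain, 0.12 and 0.76 in liver/kidney and 0.02 and 0.22 in testis, without passing. Of the subunit 8 isoforms, Cox8a passed in liver/kidney alone, and Cox8b (0.12, 0.09 and 0.17 in brain, liver/kidney and testis) and Cox8c (0.11, 0.18 and -0.15) did not pass in any tissue. Cox6b1 differed by 0.01, 0.10 and 0.05 and Ndufa4 by 0.10, -0.14 and -0.08, also without passing. The probes of Cox6b2, Cox7b, Cox7b2 and Ndufa4l2 were not among the members measured.

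Differences between tissues in the effect of spretus were tested in a model of all 72 arrays. Cox8a differed between brain (0.14) and liver/kidney (-0.53) by 0.67 ± 0.17 (limma adjusted p = 0.0188), 1 of 84 members against 1.90% of all probes. Atp5j2 differed between liver/kidney (-0.04) and testis (-0.44) by 0.39 ± 0.12 (adjusted p = 0.0337), and Ndufv2 between liver/kidney (0.22) and testis (-0.30) by 0.52 ± 0.16 (adjusted p = 0.0403). With Cox5a these were 3 of 84 members, against 5.98% of all probes. Between brain and testis Sdhb alone passed, 1 of 84 members against 2.96% of all probes. Leaving out 1 spretus array ended each of these calls in at least 1 run: Cox8a was 0.52 without spretus 2 of liver/kidney (adjusted p = 0.126), Atp5j2 0.30 (adjusted p = 0.226) and Ndufv2 0.42 (adjusted p = 0.212) without spretus 2 of testis. For mus minus dom, 0 of 84 members differed between any pair of tissues, against 0.0389% of all probes between brain and liver/kidney, 0.0% between brain and testis and 0.17% between liver/kidney and testis, and their smallest unadjusted limma p was 0.00221 (Cox20).

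Sdhb and Cox5a owed their differences to single arrays. Sdhb, the iron-sulphur subunit of complex II, read 4.20 on spretus 3 of brain, where only 1 of its 2 spots had a value, and -0.05 and 0.11 on spretus 1 and 2. The difference between brain and testis was 1.68 ± 0.44 (limma adjusted p = 0.0187) with that array and 0.28 without it (adjusted p = 0.866). Cox5a, a matrix-side subunit of complex IV, read 0.48, 3.18 and 0.23 on spretus arrays 1, 2 and 3 of liver/kidney. On the high array both spots read alike, 3.20 and 3.21 as deposited. The difference between liver/kidney and testis was 1.36 ± 0.34 (adjusted p = 0.00828) with it and 0.41 without it (adjusted p = 0.475). In brain, Cox5a was high on all 3 spretus arrays (0.62, 0.87 and 0.89), but arrays of mus and ssp reached them and the difference, 0.61 ± 0.19, did not pass (adjusted p = 0.0786).

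The same liver/kidney array, spretus 2, was high for other members with both spots in accord. Cox7a2 read 2.64 there (-0.17 and 0.06 on the other spretus arrays), Atp5j 2.43 (-0.00 and -0.44) and Ndufa5, an accessory subunit of complex I, 1.39 (0.45 and 0.13). It is the array that shares its pattern of empty spots with cas 3 of brain alone, and these 2 are also the arrays whose labels name their dyes. In all, 48 member values lay beyond 1 in size, in 25 members. These were 0.632% (brain), 0.777% (liver/kidney) and 0.926% (testis) of member values, against 0.630%, 1.04% and 0.552% of the values of all probes. Both spots were measured for 43 of the 48 and lay beyond 1 on the same side for 29, so some of the large values rested on 1 of 2 spots. On mus 8 of brain, for instance, the Atp5md probe that read 3.5 had 1 measured spot.

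**Figure D5:**
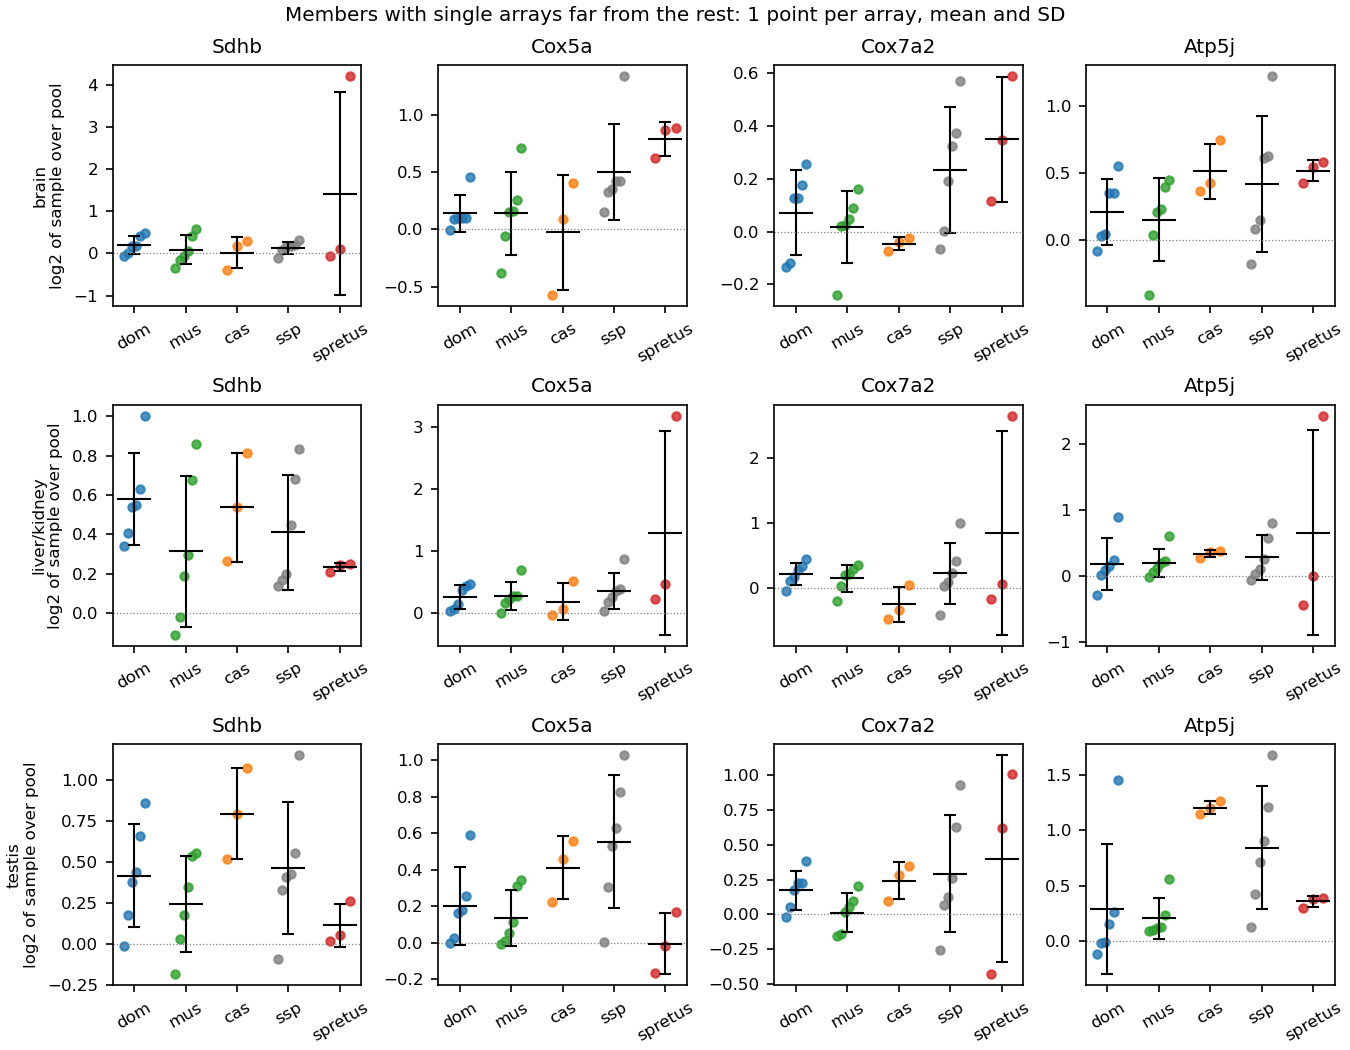
Log2 of sample over pool (vertical axes, each panel with its own scale) of Sdhb, Cox5a, Cox7a2 and Atp5j by group (horizontal axis) in brain, liver/kidney and testis; points are arrays, horizontal marks means and bars the SD. Spretus 3 of brain at 4.20 for Sdhb and spretus 2 of liver/kidney at 2.43 to 3.18 for the other genes stand apart.

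Members did not vary together from array to array within the groups. After each array's value was set against its group mean, the median correlation between pairs of members was 0.00 for brain, 0.01 for liver/kidney and -0.01 for testis over 24 arrays, close to the median between members and other probes (-0.00, 0.00 and -0.00). Subunits of 1 complex were no exception, the medians within complexes I, III, IV and V lying between -0.07 and 0.05. Over all 72 arrays, 3655 pairs had a median Spearman rho of 0.01, and the 5 and 95 percentiles were -0.26 and 0.30. The highest was between Atp5pb, of the ATP synthase's peripheral stalk, and Ndufb3 (0.72), then Cox5a and Atp5j (0.68) and Atp5pb and Ndufaf2 (0.61). The lowest was between Cox4i1 and Atp5pb (-0.61). The arrays of a tissue share the reference pool and the values of an array share its hybridisation, so these are descriptions with no test. The residual SD of members had medians of 0.19 (brain), 0.17 (liver/kidney) and 0.15 (testis), beside 0.17, 0.16 and 0.15 for all probes.

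For changed members, the closest profiles over the arrays of a tissue are given as a description. No complex holds more than 31 of the 86 member probes, so neighbours from other complexes are common by composition alone. In testis, Atp5j2 was closest to Ndufaf6 (Pearson r = 0.72 over 23 arrays), then to Atp5md (0.71) and Ndufv2 (0.63). In brain, Cox4i2 was closest to Ndufv1 (r = 0.73 over 24 arrays), Cox6a2 to Ndufa9 (0.63) and Atp5c1 (0.60), Cox4i1 to Cox8c (0.63) and Ndufa4 to Uqcrfs1 (0.62). In liver/kidney, Cox8a was closest to Atp5pb (0.67), Ndufaf8 to Ndufb3 (0.59) and Ndufv3 to Cox20 (0.59). Group differences enter these values.

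Against the C57BL6 pool, the mean of the group means had a median over members of 0.03 for brain, 0.04 for liver/kidney and 0.01 for testis, with 52, 53 and 48 of 86 probes above 0. Over all probes 47.68%, 48.01% and 53.63% were above. Besides Ndufv3, Cox5a was above the pool on 23 of 24 liver/kidney arrays and Ndufb7 below it on 23 of 24 testis arrays (median -0.26).

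Other genes of the pathway, listed with earlier results known, were also compared in spretus. Of 34 measured genes for carriers, assembly and transport, brain had 1 higher, Nubpl (1.92), an iron-sulphur assembly factor of complex I, and 1 lower, the outer membrane channel Vdac3 (-0.33). Liver/kidney had 2 higher, cytochrome c (Cycs, 0.29) and Higd1a (0.41), and 2 lower, the electron carrier Etfa (-0.52) and the ubiquinone synthesis enzyme Coq2 (-0.87). Testis had 2 of 35 higher, Uqcc1 (0.25), an assembly factor of complex III, and 1 of the 2 probes of Cyct (0.47), the testis form of cytochrome c, and 0 lower. The other Cyct probe read -0.07 (adjusted p = 0.540), so the probes disagree. Of 17 measured genes of the citric acid cycle and pyruvate oxidation, the pyruvate dehydrogenase subunit Pdha1 was lower in liver/kidney (-0.34) and Pdhb in testis (-0.25), and 0 passed in brain by the limma test. Of 10 measured regulators, Hif1a was lower in brain, Tfb2m (-0.51) and Esrra (-0.34) were lower in liver/kidney, and Yy1 (0.64) and Tfam (0.35) were higher in testis. The background shares are those given for spretus above.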

How the data were processed

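Per the labels, each two-colour array compared a sample (channel 2) with a C57BL6 pool (channel 1). The authors deposited log ratios, read here as log2 of sample over pool; the sources used here do not give their normalisation. These values ran from -5.714 to 5.772. The labels of 2 arrays name the dyes, in 1 orientation. Of the pairs of arrays of a tissue, 0 correlated below -0.3, the lowest r being -0.257. Liver/kidney arrays had a median r of 0.28 and a lowest of -0.07, testis arrays 0.15 and -0.257, and brain arrays 0.08 and -0.15. Each median was smaller in size than 0.3, so a reversed array could stay above the limit. The limit therefore cannot decide whether all arrays share a direction, which remains an assumption. Array mus 8 of brain was kept in the group of its title although its channel label names domesticus.

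Duplicate spots were averaged, each array was centred on its median, and single spots (1488) were dropped. Of 22089 probes, 15801 have 1 gene symbol, 294 several and 5994 none in the platform annotation, and 15601 matched RefSeq. Probes with at least 2 values in each group of a tissue were tested with limma 3.58.1 (R 4.3.3; lmFit, eBayes) on the 24 arrays of the tissue, with 4 contrasts, an F test and Benjamini-Hochberg adjustment over all probes at 0.05. Differences between tissues came from a fit of all 72 arrays in which the animal was a random block. The procedure was tested on simulated data with independent noise and no array sets. That test therefore does not cover the overlap of sets and groups. Equal animal numbers did not pair samples (median r of deviations -0.007, -0.0008 and -0.0402 over 27 pairs per tissue). Each array holds 1 mouse, so p-values measure the spread between arrays. That spread joins differences between mice with those between hybridisations, and the number of arrays limits the precision.

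The members and lists were chosen with earlier results of these data known. Members named are those that passed, the 3 smallest p-values of each contrast, members with no overlap between groups, and isoform sets; Atp5j, Sdhb, Cox5a, Cox7a2 and Ndufa5 as examples of single arrays were chosen after their values were seen. Alternatives were quantile normalisation, no centring, array weights, robust eBayes, other filters, gene means, sets or animal numbers as blocks, and leaving out each array; comparisons within a set and tissue differences without single arrays were added after seeing the data.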

Additional observations from a re-analysis of the deposited data

Results flagged for a closer look

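Of 66 groups of 6 arrays examined, for the changed members and the median of members, 8 held an array far from the others of its group, and chance gives about 1 in 20. In brain these were Ndufa4 on mus 5 at -0.46 (the others between -0.11 and 0.08), Cox4i2 on dom 10 at 0.29 (others 0.02 to 0.08) and Cox4i2 on mus 5 at 0.26 (others 0.04 to 0.12). In liver/kidney they were Cox14 on ssp 5 at 0.54 (others 0.00 to 0.14) and the median of members on the same array at 0.0032 (others 0.04 to 0.06). In testis they were Atp5j2 on dom 1 at -0.25 (others -0.07 to -0.02), Ndufv2 on mus 7 at 0.25 (others -0.04 to 0.04) and Ndufv2 on ssp 4 at 0.43 (others -0.13 to 0.06).

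The difference of spretus from the musculus groups itself differed between tissues for 5 members in limma. The difference of differences was 0.67 for Cox8a (brain minus liver/kidney), 1.68 for Sdhb (brain minus testis), 1.36 for Cox5a, 0.39 for Atp5j2 and 0.52 for Ndufv2 (liver/kidney minus testis). Sdhb rested on spretus 3 of brain and Cox5a on spretus 2 of liver/kidney.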

How the results depend on the processing

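Counts are of members that changed in limma, as brain, liver/kidney or testis. Of the 16 calls, all 16 held without centring, with robust eBayes and with gene means, 14 of 14 with a value required on every array, 8 with array weights, 6 after quantile normalisation and 2 of 3 with the spread of the compared groups alone; 0 held within a set. Quantile normalisation gave 0 for ssp and 5 for spretus in brain; 1 for mus minus dom, 0 for cas, 1 for spretus and 3 among the 5 groups in liver/kidney; 1 for cas and 1 for spretus in testis; and 0 between brain and liver/kidney and 0 between liver/kidney and testis for spretus. Array weights gave 4 for mus minus dom, 0 for ssp, 15 for spretus and 11 among groups in brain; 1, 0 (cas), 0 (spretus) and 2 (among groups) in liver/kidney; and 2 for cas and 10 among groups in testis. With weights 12.6% of all probes passed among groups in brain and 8.7% in testis, and 14.9% for spretus in brain. All probes called for spretus in brain went from 814 to 3067 with weights, and in testis from 1956 to 486 after quantile normalisation. The spread of the compared groups alone gave 0 for mus minus dom in brain, and 1 for mus minus dom and 2 for cas in liver/kidney. The set as a fixed term gave 6 for spretus in brain and 0 in testis. The set as a random block gave 0 for mus minus dom in brain; 0 for cas, 0 for spretus and 0 among groups in liver/kidney; and 3 for spretus in testis. Within sets, brain gave 1 for mus minus dom (Ndufb7, higher, and not Cox4i1), against 0.804% of all probes. Brain also gave 0 for ssp (0.00465% of all probes in set 1, 0.00952% in set 2) and 0 for spretus (0.29%). Liver/kidney gave 1 for mus minus dom (0.819%), 1 for ssp (1.6%) and 0 for spretus (0%). Testis gave 1 for cas (0.0142%) and 0 for spretus (2.42%). With a value on every array, the testis count among groups was 1. The replicate block (animal number as a fixed term), which does not pair samples here, gave 0 for mus minus dom, 0 for ssp and 0 among groups in brain; 0 for cas, 2 for spretus and 0 among groups in liver/kidney; and 1 for spretus and 0 among groups in testis, and 5 of 16 calls held. Averaging its 2 probes turned the Atp5md difference of mus from dom in liver/kidney from -0.20 to 0.0632 (adjusted p = 0.999). Other causes were not tested.

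Leaving out 1 array at a time gave, in brain, 1 to 9 among groups, 0 to 5 for cas, 0 to 1 for mus minus dom, 2 to 8 for spretus and 0 to 2 for ssp. In liver/kidney it gave 2 to 9, 0 to 4, 0 to 0, 2 to 10 and 0 to 0 in the same order, and in testis 0 to 5, 0 to 1, 0 to 0, 2 to 7 and 0 to 0. Between tissues it gave 0 to 1 (brain and liver/kidney), 0 to 1 (brain and testis) and 1 to 4 (liver/kidney and testis) for spretus. Shares of all probes are not given for these runs or for several settings above. Where they are missing, a change in the count of members cannot be told from a change in calls over all probes. Groups of 3 arrays, unknown normalisation and sets that overlap the groups limit every call.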

Other observations

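In liver/kidney, Vdac1, a channel of the outer mitochondrial membrane that exchanges metabolites with the cytosol, was lower in cas than in dom and mus by a log2 difference of -1.88 ± 0.39 (limma adjusted p = 0.0196). All cas arrays lay in array set 2 and all dom and mus arrays in set 1, so set and group cannot be told apart, and with the set as a random block 0 of 20652 probes passed in this contrast. In spretus liver/kidney, the globin Hbb-b2 was higher (0.74), 1 of 3 blood probes to pass. The muscle genes Acta1 (-1.57) and Mylpf (-0.57) were lower, while of all 7 skeletal muscle probes 4 lay above and 3 below 0, with a median of 0.17.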
